A study of Mus musculus with 9 samples.

Results

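The 9 genes described here encode the core of transforming growth factor beta (TGF-beta) and activin-myostatin signalling: the ligands Tgfb1, Tgfb2, Tgfb3, Mstn and Inhba, the receptors Tgfbr1 and Tgfbr2, the intracellular inhibitor Smad7 and the secreted antagonist Fst. They were taken by gene symbol from the deposited count and FPKM tables, which list 55335 genes. Each symbol matched 1 row, and all 9 were among the 18259 genes that passed a filter on low counts. RNA sequencing was done on leg muscle of 9 WT mice (strain written c57b6l in the labels), each giving 1 library. All 9 mice, the controls included, had a hindlimb model labelled with both suspension and ischemia. 3 mice were left untreated (Control), 3 received aspirin, a cyclooxygenase inhibitor (Aspirin), and 3 received a peptide hydrogel combined with aspirin (called Hydrogel below). The labels used here give no age, sex, dose or time after injury. Neither healthy muscle nor hydrogel alone was analysed here, so all comparisons are among injured mice.

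TGF-beta ligands are secreted in a latent complex and, once released, bring a type II and a type I receptor kinase together, and the type I kinase phosphorylates Smad2 and Smad3. Myostatin and activins signal to the same Smads through activin type II receptors. Myostatin, made mainly by muscle fibres, limits muscle mass, follistatin binds and neutralises myostatin and activins, and TGF-beta drives matrix synthesis by fibroblasts after muscle injury.

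Inhba was the member in which the Aspirin libraries stood apart. It was counted at 4.45, 1.19 and 3.14 CPM (counts scaled to a common library total, with TMM factors) in the Aspirin libraries, against 0.167 to 0.961 CPM in the other 6. Mstn had the widest range, from 2.18 CPM in Aspirin replicate 1 to 86.0 CPM in Hydrogel replicate 3. No member passed an adjusted p of 0.05 in any comparison by edgeR's quasi-likelihood test.

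The promoters of these 2 genes are shown because Inhba and Mstn carried the widest differences between libraries. Each run is the 250 bases before the RefSeq transcript start on GRCm38.p6, written 5′ to 3′ on the gene's strand. The Mstn run is chr1:53061390-53061639, plus strand, and the Inhba run is chr13:16011601-16011850, plus strand. Capitals mark every match to the 6 motifs searched on both strands.
Mstn: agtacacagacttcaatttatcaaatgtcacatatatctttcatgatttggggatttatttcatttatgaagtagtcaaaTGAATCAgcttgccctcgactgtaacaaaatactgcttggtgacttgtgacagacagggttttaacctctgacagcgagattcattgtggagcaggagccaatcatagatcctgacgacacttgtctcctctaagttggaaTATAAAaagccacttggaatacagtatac
Inhba: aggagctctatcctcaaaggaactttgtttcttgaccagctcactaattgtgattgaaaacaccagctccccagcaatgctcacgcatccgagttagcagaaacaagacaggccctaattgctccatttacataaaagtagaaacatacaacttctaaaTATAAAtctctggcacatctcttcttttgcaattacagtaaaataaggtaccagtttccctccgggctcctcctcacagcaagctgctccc
The motifs were the SMAD palindrome GTCTAGAC, the AP-1 site TGANTCA, the cyclic AMP response element TGACGTCA, the E-box CAGCTG, a MEF2-type site of CTA and TAG with 4 bases between them and the TATA letters TATAAA. Mstn held TATAAA 29 bases and TGAATCA, an AP-1 type match, 170 bases before the start. Inhba held TATAAA 91 bases before the start. Of the 4 other members with a promoter entry, Tgfb2 held TATAAA, and no other match was found. Of 32851 windows of the same length, 12.4% held TATAAA, 6.75% TGANTCA, 13.0% CAGCTG, 3.20% the MEF2-type site, 1.55% TGACGTCA and 0.167% GTCTAGAC. These are matches of letters only, and binding was not measured.

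Total counts ran from 32197791 to 48170537 per library. All 10 myofibre markers were counted in each library, and their summed level was 24495 CPM in Aspirin replicate 1 and 107336 to 329367 CPM in the other 8, highest in Hydrogel replicate 3. Those 2 libraries stand at the ends of the series. Summed macrophage markers ran from 515 to 1366 CPM in Control, 1120 to 2604 in Aspirin and 500 to 1139 in Hydrogel. Summed lymphocyte markers were 736 CPM in Aspirin replicate 1, 296 in Control replicate 1 and 106 in Hydrogel replicate 2, and 6.66 to 52.9 CPM in the rest. Keratinocyte markers summed to 138 CPM in Control replicate 1 and 7.21 to 28.1 CPM elsewhere.

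Per gene length, Tgfb3 and Tgfbr2 were the most abundant members and Inhba the least. Over all 9 libraries the deposited FPKM (fragments scaled for gene length and library total) averaged 12.8 ± 3.22 (SD, n = 9) for Tgfb3 and 10.9 ± 3.76 for Tgfbr2. Mstn followed at 9.02 ± 5.32 FPKM, Tgfb1 at 6.08 ± 2.97 and Tgfbr1 at 5.36 ± 2.10. Tgfb2 stood at 3.25 ± 0.911 FPKM, Fst at 2.37 ± 0.883, Smad7 at 1.30 ± 1.27 and Inhba at 0.234 ± 0.309. The mean ± SD ranges of neighbours in this order overlapped in all 8 pairs. Within a library, Inhba had the lowest FPKM of the members in 9 of 9.

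**Figure D1:**
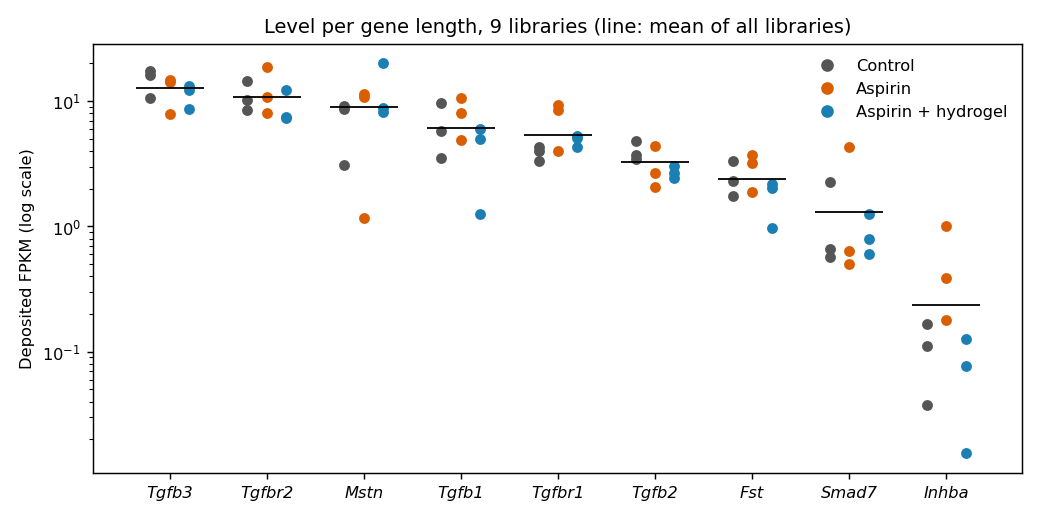
Deposited FPKM of the 9 genes on a log axis, with 1 point per library coloured by group and a line at the mean of all 9 libraries. Tgfb3 lies highest on average at 12.8 FPKM and Inhba lowest at 0.234, while Mstn spreads from 1.16 to 20.0 FPKM.

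Among the TGF-beta ligands, Tgfb1, the isoform made widely by immune and stromal cells, did not separate the groups. Tgfb1 (ENSMUSG00000002603, chromosome 7, 25687002 to 25705077, plus strand of mm10) stood at 44.0, 20.8 and 35.9 CPM in Control, 37.1, 41.2 and 31.0 in Aspirin, and 28.9, 34.2 and 10.1 in Hydrogel. Hydrogel replicate 3 was the lowest and all groups overlapped. The log2 fold change of Hydrogel against Aspirin was -0.58 ± 0.43 (SE), and -0.23 without Hydrogel replicate 3. Hydrogel against Control gave -0.46 ± 0.43, and -0.11 without that library. Aspirin against Control gave 0.12 ± 0.43, and -0.14 without Control replicate 2.

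Tgfb2 and Tgfb3, ligands with more restricted expression, were both lowest in Aspirin replicate 1. Tgfb2 (ENSMUSG00000039239, chromosome 1, 186622792 to 186705989, minus strand) was at 24.9, 23.7 and 26.5 CPM in Control, 8.34, 15.9 and 32.0 in Aspirin, and 16.5, 20.0 and 24.5 in Hydrogel. Tgfb3 (ENSMUSG00000021253, chromosome 12, 86056745 to 86079041, minus strand) was at 49.0, 42.6 and 72.2 CPM in Control, 18.6, 49.1 and 62.6 in Aspirin, and 51.4, 47.0 and 46.5 in Hydrogel. For both genes the Aspirin group spanned the widest range and overlapped the other groups. The log2 fold change of Aspirin against Control was -0.42 ± 0.42 for Tgfb2 and -0.33 ± 0.40 for Tgfb3, and without Aspirin replicate 1 it was -0.071 and 0.025. Hydrogel against Control gave -0.30 ± 0.42 for Tgfb2 and -0.18 ± 0.40 for Tgfb3, and Hydrogel against Aspirin 0.12 ± 0.42 and 0.15 ± 0.40, both turned below 0 by leaving out Aspirin replicate 1 (-0.23 and -0.21). Tgfb3 made up 52.7% to 68.8% of the summed FPKM of the TGF-beta ligands in 8 libraries and 38.5% in Aspirin replicate 1, the only library in which Tgfb1 exceeded it.

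Mstn, which encodes myostatin, varied 39.5-fold between the lowest and highest library. Mstn (ENSMUSG00000026100, chromosome 1, 53061640 to 53068079, plus strand) stood at 7.58, 27.6 and 30.3 CPM in Control, 2.18, 31.4 and 36.5 in Aspirin, and 25.8, 27.0 and 86.0 in Hydrogel. Control replicate 1 and Aspirin replicate 1 were low, Hydrogel replicate 3 was high, and the other 6 libraries lay from 25.8 to 36.5 CPM across all groups. The log2 fold change was 1.08 ± 0.92 for Hydrogel against Control and 0.99 ± 0.92 for Hydrogel against Aspirin. Without Hydrogel replicate 3 these were 0.26 and 0.17. Aspirin against Control gave 0.098 ± 0.91, with a 95% interval of -1.97 to 2.16, and it was 0.64 without Aspirin replicate 1. Leaving out Control replicate 1 turned it to -0.31, leaving out Aspirin replicate 2 to -0.18 and leaving out Aspirin replicate 3 to -0.39. The same 2 low libraries and the same high library held the extremes of the summed myofibre markers, at 24495, 107336 and 329367 CPM, and the part of fibre content in the Mstn values was not tested. In bulk muscle, fewer cells of a type and less RNA per cell cannot be told apart.

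Inhba encodes the activin A subunit, which is induced in inflamed tissue. Inhba (ENSMUSG00000041324, chromosome 13, 16011851 to 16031621, plus strand) stood at 0.961, 0.290 and 0.873 CPM in Control, 4.45, 1.19 and 3.14 in Aspirin, and 0.581, 0.937 and 0.167 in Hydrogel. These levels rested on 52, 13 and 30 counts in Control, 233, 51 and 110 in Aspirin, and 24, 31 and 5 in Hydrogel. Each Aspirin library lay above each of the other 6, and Control and Hydrogel overlapped. The log2 fold change of Aspirin against Control was 2.04 ± 0.75 (95% interval 0.36 to 3.73, unadjusted p = 0.0228, adjusted p = 0.753 by edgeR). Hydrogel against Aspirin gave -2.37 ± 0.76 (95% interval -4.09 to -0.66, unadjusted p = 0.0122, adjusted p = 0.453 by edgeR). Both comparisons share the Aspirin libraries. Hydrogel against Control gave -0.33 ± 0.74. Leaving out each library in turn moved the first value between 1.60 and 2.41 and the second between -2.97 and -1.93, and the lowest value in size came without Aspirin replicate 1 each time. The adjusted p by DESeq2 was 0.248 for Aspirin against Control and 0.0838 for Hydrogel against Aspirin. Summed neutrophil markers, at 366, 32.0 and 159 CPM in Aspirin, 90.0, 17.0 and 157 in Control and 26.0, 18.6 and 11.0 in Hydrogel, and the macrophage sums given above were also highest in Aspirin replicate 1, and their part in the Inhba values was not tested. All 10 macrophage markers were higher on average in Aspirin than in Control and 0 of 10 were higher in Hydrogel than in Aspirin. Of the 8 neutrophil markers, Cxcr2, Retnlg and Ly6g were at 0 in some libraries.

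**Figure D2:**
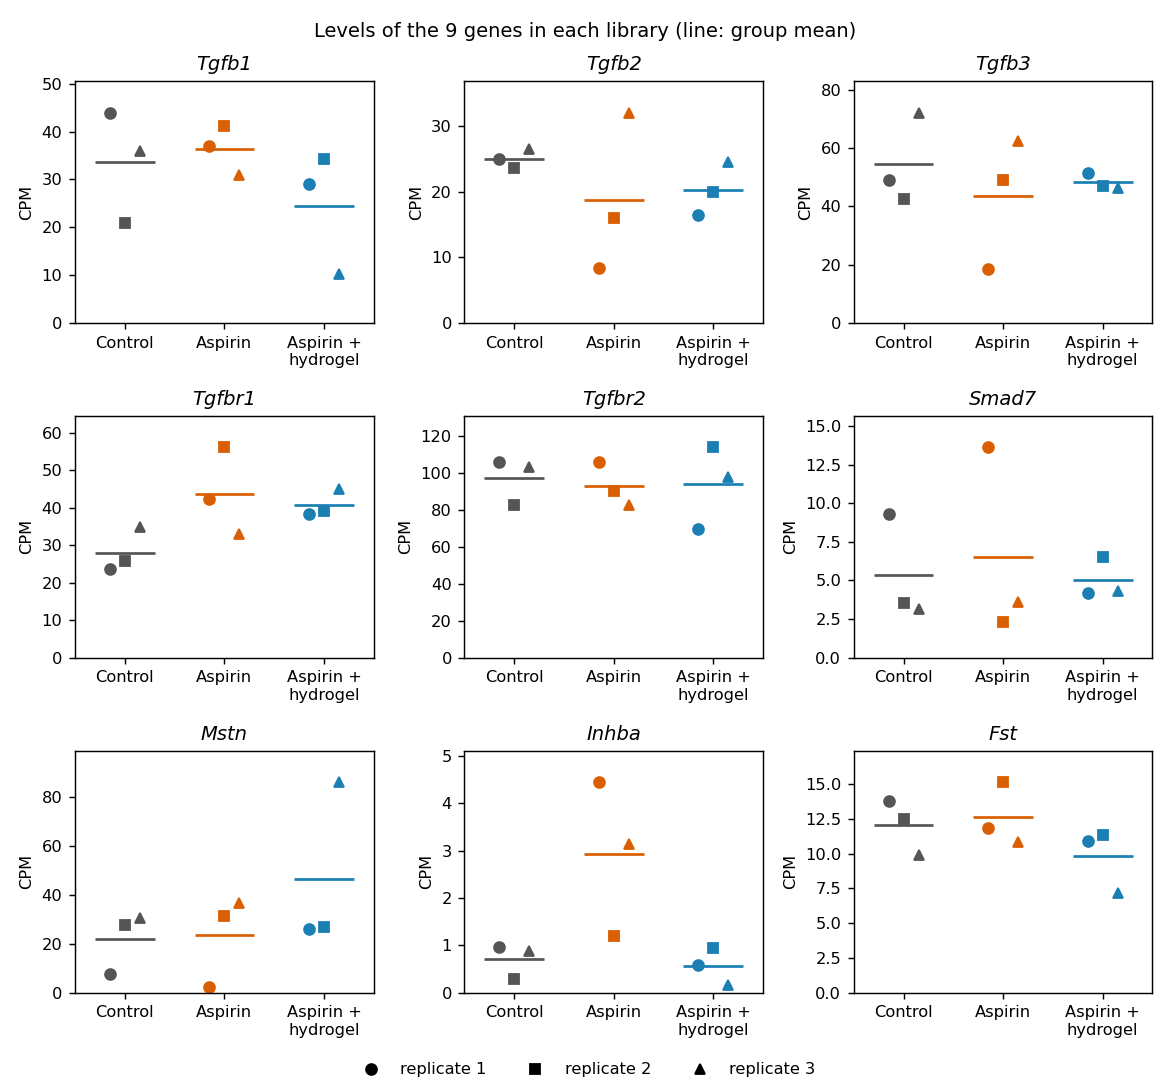
CPM of each of the 9 genes by group on linear axes that start at 0, with 1 point per library shaped by replicate number and a line at the group mean (n = 3). The 3 Aspirin points of Inhba lie above all others, the 3 Hydrogel points of Tgfbr1 lie above the 3 Control points, and the Mstn mean of Hydrogel is carried by 1 library at 86.0 CPM.

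Tgfbr1, the type I receptor kinase of TGF-beta, was lowest in Control. Tgfbr1 (ENSMUSG00000007613, chromosome 4, 47353222 to 47414931, plus strand) stood at 23.6, 25.8 and 34.9 CPM in Control, 42.3, 56.2 and 33.0 in Aspirin, and 38.5, 39.2 and 45.0 in Hydrogel. All Hydrogel libraries lay above all Control libraries, and Aspirin replicate 3 overlapped Control replicate 3. The log2 fold change was 0.64 ± 0.25 for Aspirin against Control (95% interval 0.083 to 1.20, unadjusted p = 0.0287, adjusted p = 0.753 by edgeR). For Hydrogel against Control it was 0.54 ± 0.25 (95% interval -0.015 to 1.10, unadjusted p = 0.0553, adjusted p = 0.987 by edgeR). Both comparisons share the Control libraries. Hydrogel against Aspirin gave -0.099 ± 0.25. Without Aspirin replicate 2 the first value was 0.42, a drop of over 1.5 times.

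Tgfbr2, the type II receptor that binds the ligand first, differed least. Tgfbr2 (ENSMUSG00000032440, chromosome 9, 116084293 to 116175360, minus strand) stood at 106, 83.0 and 103 CPM in Control, 106, 90.4 and 82.6 in Aspirin, and 69.8, 114 and 98.1 in Hydrogel. The groups overlapped, and the highest library exceeded the lowest 1.63-fold. The 3 log2 fold changes were -0.067, -0.052 and 0.015, with SE of 0.25 each, and their 95% intervals together ran from -0.62 to 0.57. Per length, Tgfbr2 exceeded Tgfbr1 in every library, by 1.28-fold in Aspirin replicate 2 to 3.59-fold in Control replicate 1.

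Smad7, a feedback inhibitor that is itself induced by TGF-beta, was high in single libraries. Smad7 (ENSMUSG00000025880, chromosome 18, 75367529 to 75395935, plus strand) stood at 9.29, 3.55 and 3.17 CPM in Control, 13.6, 2.34 and 3.63 in Aspirin, and 4.21, 6.50 and 4.34 in Hydrogel. The groups overlapped, and the 3 highest libraries, Aspirin replicate 1, Control replicate 1 and Hydrogel replicate 2, were in this order also the 3 highest in summed lymphocyte markers. Among the 7 lymphocyte markers, Cd8a and Ms4a1 were at 0 in some libraries. The part of those cells in the Smad7 values was not tested. The log2 fold change of Aspirin against Control was 0.29 ± 0.67, and -0.86 without Aspirin replicate 1. Hydrogel against Aspirin gave -0.38 ± 0.67, and 0.75 without that library. Hydrogel against Control gave -0.092 ± 0.67, and 0.58 without Control replicate 1.

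Fst, which encodes follistatin, stayed in a narrow range. Fst (ENSMUSG00000021765, chromosome 13, 114452290 to 114458951, minus strand) stood at 13.8, 12.5 and 9.89 CPM in Control, 11.9, 15.1 and 10.8 in Aspirin, and 10.9, 11.4 and 7.14 in Hydrogel. Hydrogel replicate 3 was the lowest and the groups overlapped. The log2 fold changes were 0.063 ± 0.26, -0.30 ± 0.26 and -0.36 ± 0.26 for Aspirin against Control, Hydrogel against Control and Hydrogel against Aspirin, the last with a 95% interval of -0.95 to 0.22. In FPKM, Mstn exceeded its antagonist Fst by 3.53- to 5.74-fold in 6 libraries and by 20.6-fold in Hydrogel replicate 3. The ratio of Mstn to Fst was 0.933 in Control replicate 1 and 0.312 in Aspirin replicate 1.

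Counting over the members, 0 of 9 passed the adjusted threshold in each of the 3 comparisons and in the test of any difference, as did 0% of all 18259 genes. DESeq2 also called 0 members, against 0.613% of the genes it tested for Aspirin against Control, 0.0997% for Hydrogel against Control and 0.957% for Hydrogel against Aspirin, and limma-voom called 0 members. For Aspirin against Control, 2 of 9 members had an unadjusted p under 0.05, both higher, against 6.48% of all genes in either direction and 3.09% higher, and 1 of 9 had groups that did not overlap, against 11.0%. For Hydrogel against Control the numbers were 0 of 9, against 3.92%, and 1 of 9, against 13.2%. For Hydrogel against Aspirin they were 1 of 9, against 10.9%, and 1 of 9, against 16.2%. In the test of any difference, Inhba had an unadjusted p of 0.0159 and an adjusted p of 0.659 by edgeR, and it was the member with the smallest p. 1 of 9 members was under 0.05 there, against 6.97% of all genes. Without Aspirin replicate 1 the number of members with separated groups was 2 for Aspirin against Control, where Mstn joined Inhba, and 2 for Hydrogel against Aspirin, where Smad7 joined. With only 2 Aspirin libraries, 19.5% and 23.1% of all genes were separated in these comparisons. Without Hydrogel replicate 3 it was 2 for Hydrogel against Control, where Tgfb2 joined Tgfbr1, against 17.9% of all genes. The median log2 fold change of the members was 0.098, -0.18 and -0.099 in the 3 comparisons, against 0.046, -0.030 and -0.053 over all genes. These medians hung on single libraries. Without Aspirin replicate 2 the first was -0.054 and the third 0.0046, without Control replicate 1 the second was -0.037 and without Hydrogel replicate 3 it was -0.10, and without Aspirin replicate 1 the third was -0.21. With the replicate number as a block the third was 0.012.

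**Figure D3:**
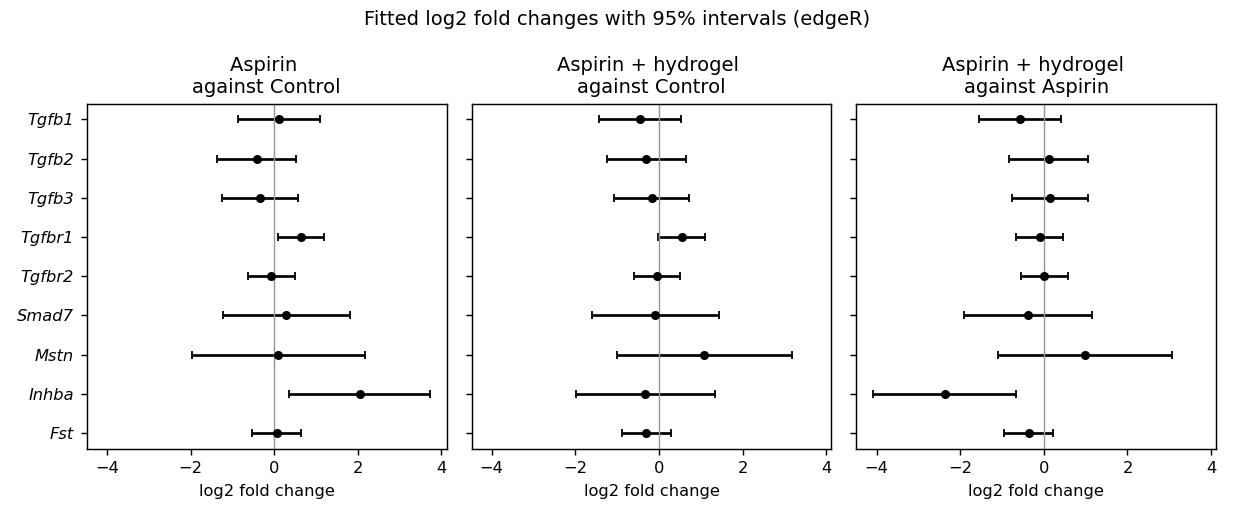
Fitted log2 fold changes of the 9 genes in the 3 comparisons, with 95% intervals from edgeR's quasi-likelihood test on 9 libraries. The intervals of Inhba exclude 0 in the comparisons of Aspirin with Control and of Hydrogel with Aspirin, that of Tgfbr1 excludes 0 in the first, and those of Mstn are the widest, and no adjusted p was under 0.05.

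87 further genes of the pathway were grouped in 8 lists. 85 were tested, and the activin subunit genes Inhbc and Inhbe, with 0 and 3 counts in all libraries together, did not pass the filter. In edgeR, 0 of the tested genes passed the adjusted threshold in any comparison, in any list.

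Genes that respond to TGF-beta stood lower in Hydrogel. Against Control all 16 had negative log2 fold changes (median -0.62, against -0.030 over all genes). Of these, 7 had Hydrogel libraries that all lay below the Control libraries, against 6.30% of all genes. An unadjusted p under 0.05 by edgeR was found for 3, against 3.92% of all genes in either direction. Without Hydrogel replicate 3 it was found for 1, against 324 of 19165 genes. Against Aspirin 15 of 16 were negative (median -0.66, against -0.053 over all genes), and 9 were separated downwards, against 8.75% of all genes. Without Hydrogel replicate 3 the numbers separated were 7, against 8.38% of all genes, and 9, against 10.8%. Without Aspirin replicate 1 the second was 12, against 12.3% of all genes. The list was chosen with earlier results of these data known, so these counts and shares are descriptions. Cell markers were counted by direction as well. Against Aspirin, 0 of 10 macrophage, 2 of 10 fibroblast and 0 of 5 tendon markers, but 10 of 10 myofibre and 8 of 8 endothelial markers, were higher on average in Hydrogel. Against Control, 5 of 10 macrophage, 3 of 10 fibroblast, 2 of 5 tendon, 8 of 10 myofibre and 1 of 8 endothelial markers were higher. Summed fibroblast markers ran from 6353 to 9856 CPM in Control, 5026 to 10264 in Aspirin and 5240 to 7013 in Hydrogel, and tendon markers from 51.4 to 240, 140 to 173 and 47.5 to 86.7 CPM, with none of these markers at 0 in any library. The fibroblast list shares Col1a1 and Col3a1 with the response genes, and they made up 60.3% to 81.6% of its sum. The other 8 fibroblast markers summed to 2066 to 2829 CPM in Control, 1020 to 3076 in Aspirin and 2082 to 2226 in Hydrogel. A list of smooth muscle and pericyte markers shares Acta2 and Tagln with the response genes. Of its 7 markers, 1 was higher on average in Hydrogel than in Control and 4 were higher than in Aspirin. They summed to 609 to 713 CPM in Control, 324 to 581 in Aspirin and 593 to 764 in Hydrogel. The part of those cells in the response genes was not tested. For Aspirin against Control the list was split, with 11 positive and 5 negative (median 0.072, and -0.033 without Aspirin replicate 1).

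Lox, the enzyme that crosslinks collagen, was the response gene with the smallest p in both comparisons with Aspirin. It stood at 42.6, 31.8 and 40.0 CPM in Control, 155, 82.0 and 73.6 in Aspirin, and 22.5, 31.6 and 20.8 in Hydrogel. The Aspirin libraries lay above all others and the Hydrogel libraries below all others. Its log2 fold change was 1.44 ± 0.32 for Aspirin against Control (adjusted p = 0.747 by edgeR, 0.0172 by DESeq2) and -2.05 ± 0.33 for Hydrogel against Aspirin (adjusted p = 0.453 by edgeR, 2.9e-05 by DESeq2). Postn, the matrix protein periostin, averaged 653 CPM in Control, 1073 in Aspirin and 336 in Hydrogel, with each Hydrogel library below each of the others. The metalloproteinase inhibitor gene Timp1 stood at 28.8, 7.14 and 14.7 CPM in Aspirin, 5.73, 2.43 and 15.4 in Control and 3.34, 3.05 and 1.70 in Hydrogel, highest in Aspirin replicate 1. Ctgf, a matricellular target named after its values were seen, was at 70.5 CPM in Aspirin replicate 1 and 9.29 to 28.4 CPM in the other 8 libraries.

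Of the 13 genes of latency and activation, Ltbp4, a latent TGF-beta binding protein, stood out in the Aspirin libraries. It was at 137, 132 and 87.2 CPM in Control, 31.0, 58.9 and 42.9 in Aspirin, and 105, 97.8 and 94.5 in Hydrogel. Aspirin lay below both other groups, with log2 fold changes of -1.42 ± 0.29 for Aspirin against Control (adjusted p = 0.747 by edgeR, 0.00173 by DESeq2) and 1.16 ± 0.29 for Hydrogel against Aspirin (adjusted p = 0.453 by edgeR, 0.0187 by DESeq2). Thbs1, thrombospondin, an activator of latent TGF-beta, was at 12.9, 21.7 and 16.7 CPM in Hydrogel, below all Control libraries (31.8 to 43.7) and all Aspirin libraries (25.3 to 96.1). Ltbp2 was at -2.12 ± 0.78 for Hydrogel against Control, with libraries from 1.97 to 5.44 CPM in Hydrogel and from 5.65 to 34.8 CPM in Control. Endothelial markers, like Ltbp4, summed lower in Aspirin, at 215 to 300 CPM against 354 to 646 in Control and 302 to 477 in Hydrogel. All 8 were found in each library, 0 of 8 were higher in Aspirin than in Control and 8 of 8 were higher in Hydrogel than in Aspirin, and their part was not tested.

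Among 8 other receptors, Acvr1c, a type I receptor also known as ALK7, was at 17.8, 35.9 and 4.36 CPM in Control and 2.44 to 5.48 in Aspirin (log2 fold change -2.23 ± 0.70), with 1 control overlapping. Adipocyte markers, which summed to 2646 to 4131 CPM in Control and 643 to 2004 in Aspirin, moved the same way, and their part was not tested. Acvr1b and Acvr2a, receptors through which activins and myostatin act, stood higher in every Hydrogel than in every Aspirin library, with log2 fold changes of 0.98 ± 0.38 and 0.60 ± 0.25, the latter 0.35 without Hydrogel replicate 3. Of the 7 extracellular antagonists, 7 were negative for Hydrogel against Control (median -0.28, against -0.030 over all genes), with values from -1.31 to -0.0038. They included Cd109, a TGF-beta co-receptor that dampens signalling, at -1.25 ± 0.35, and the proteoglycan gene Bgn at -1.31 ± 0.42. Cd109 was also lower in Aspirin than in Control, at -1.01 ± 0.35. Its libraries ran from 9.09 to 20.0 CPM in Control, 6.23 to 7.99 in Aspirin and 3.84 to 7.30 in Hydrogel. The median of the antagonists was -0.77 without Hydrogel replicate 3. Among 13 Smads and intracellular regulators, 9 were positive for Hydrogel against Control (median 0.25), and that median was 0.17 without Hydrogel replicate 3 and 0.036 with library size alone. Tgif1, a Smad corepressor, stood at 34.3, 20.8 and 8.002 CPM in Aspirin, 7.13 to 13.0 in Control and 6.27 to 8.80 in Hydrogel, and Aspirin replicate 3 overlapped both. Its log2 fold change was 1.14 ± 0.47 for Aspirin against Control and -1.46 ± 0.48 for Hydrogel against Aspirin, and 0.59 and -0.92 without Aspirin replicate 1. The other tested activin-type ligands, Gdf11, Inhbb and Inha, had log2 fold changes of -0.80 to 0.40 over the comparisons.

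The 6 genes linked to muscle atrophy, which myostatin can raise, all had negative log2 fold changes for Hydrogel against Control. Their median was -0.50, against -0.030 over all genes. Without Hydrogel replicate 3 it was -0.55, with 5 negative and 1 positive. For Aspirin against Control the median was 0.036, and it was 0.099 without Aspirin replicate 1 and -0.13 with the replicate block. Foxo1, a transcription factor of atrophy genes, was at -1.07 ± 0.38 for Hydrogel against Control. The ubiquitin ligase gene Fbxo32 was at 795 CPM in Aspirin replicate 2 and 50.6 to 351 CPM in the other 8 libraries. In the branch of bone morphogenetic proteins (BMP), which signals through other Smads, the 19 genes had medians of -0.024, -0.064 and 0.24. Without Aspirin replicate 1 the first was 0.043 and the third 0.0034, with 10 genes positive and 9 negative in each, and with library size alone the third was -0.18. Bmp6 was at 2.10, 4.66 and 3.03 CPM in Aspirin, below all Control (5.54 to 7.93) and all Hydrogel libraries (7.14 to 9.01), with an adjusted p of 0.0245 by DESeq2 and 0.453 by edgeR for Hydrogel against Aspirin. The BMP antagonist gene Grem1, named after its values were seen, was at 38.9 CPM in Aspirin replicate 1, 9.17 in Aspirin replicate 3 and 0 to 3.47 CPM elsewhere.

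**Figure D4:**
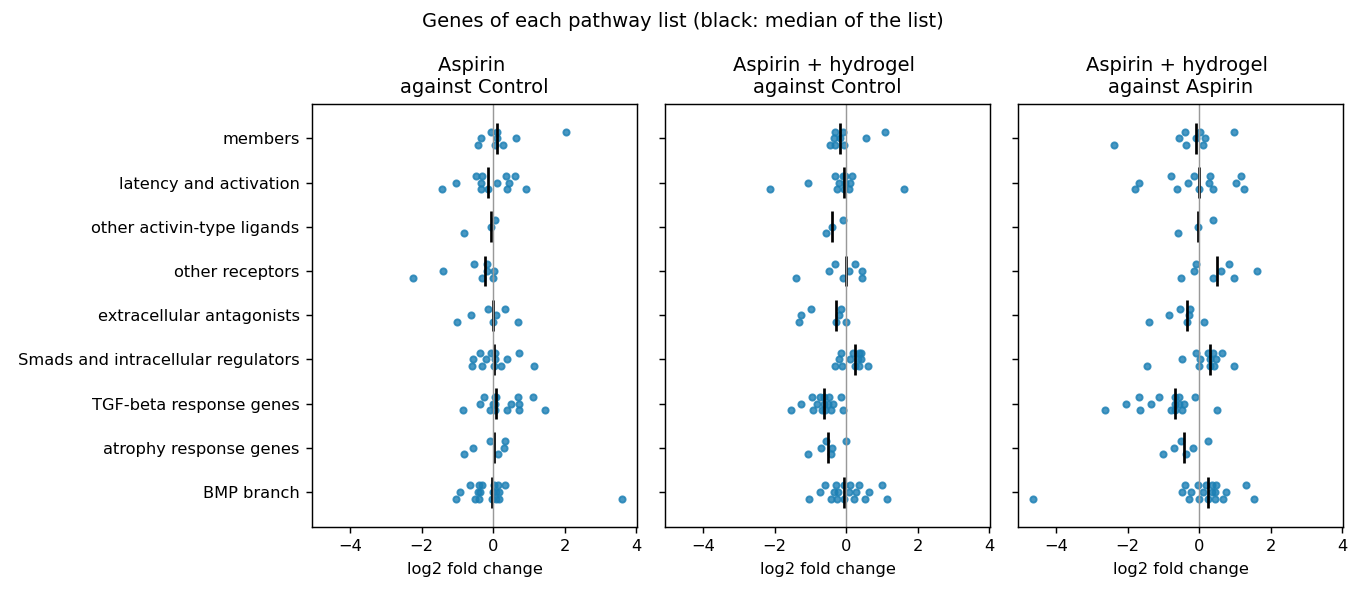
Log2 fold changes of the genes of each pathway list in the 3 comparisons, with 1 point per gene and a black line at the list's median (vertical offsets only separate points). The response genes lie left of 0 in both comparisons of Hydrogel, with medians of -0.62 and -0.66, and are split in the comparison of Aspirin with Control.

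The level of each member was set beside the mean log2 CPM of 5 marker lists over the 9 libraries, 45 relations in all. None passed after adjustment over the 45, with a smallest adjusted permutation p of 0.0658. That relation was Mstn with myofibre markers, with a Pearson r of 0.91 (exact permutation p = 0.00146) and a Spearman rho of 0.70 (exact permutation p = 0.0433, adjusted 0.278). Without the 2 libraries farthest from the marker median, Aspirin replicate 1 and Control replicate 1, r was 0.48, so it rests on them. Tgfb3 and Tgfb2 with the same markers had r of 0.92 and 0.87 (exact permutation p = 0.0112 and 0.0115, adjusted 0.103 each). Their rho was 0.53 and 0.63, and their r was 0.53 and 0.79 without those 2 libraries. Fst with myofibre markers had rho of -0.85 (exact permutation p = 0.00607, adjusted 0.194) and r of -0.37. Inhba with macrophage markers had r of 0.84 (exact permutation p = 0.00557, adjusted 0.103) and rho of 0.82 (exact permutation p = 0.0108, adjusted 0.194). Its r was 0.57 without the 2 farthest libraries by these markers, Aspirin replicate 1 and Hydrogel replicate 3. Tgfb1 with macrophage markers had r of 0.74 (exact permutation p = 0.0189, adjusted 0.106) and rho of 0.72 (exact permutation p = 0.0369, adjusted 0.276), and r of 0.76 without them. Inhba with neutrophil markers had r of 0.79 (exact permutation p = 0.00974, adjusted 0.103), and 0.47 without Aspirin replicates 1 and 3. Tgfbr1 with endothelial markers had r of -0.76 (exact permutation p = 0.0171, adjusted 0.106) and rho of -0.78 (exact permutation p = 0.0172, adjusted 0.194). Its r was -0.74 without the 2 farthest libraries by these markers, Control replicate 2 and Aspirin replicate 1. Taken as deviations from the group means, r with myofibre markers was 0.93 for Mstn, 0.94 for Tgfb3 and 0.91 for Tgfb2. It was 0.63 and 0.82 for Inhba with macrophage and neutrophil markers, 0.77 for Tgfb1 and -0.69 for Tgfbr1. With library size alone in place of TMM, 10 of the 45 Pearson relations passed after adjustment, among them Tgfb1 with macrophage markers (r = 0.87, adjusted permutation p = 0.0320) and Fst with fibroblast markers (r = 0.89, adjusted permutation p = 0.0222), against r of 0.66 for the latter with TMM. Under that scaling Tgfbr1 with endothelial markers had r of -0.31, with 0.16 for deviations from the group means. Mstn with myofibre markers had r of 0.81, with 0.16 without the 2 farthest libraries, there Aspirin replicate 1 and Control replicate 3. Tgfb3 and Tgfb2 with myofibre markers had r of 0.64 and 0.58 under that scaling.

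**Figure D5:**
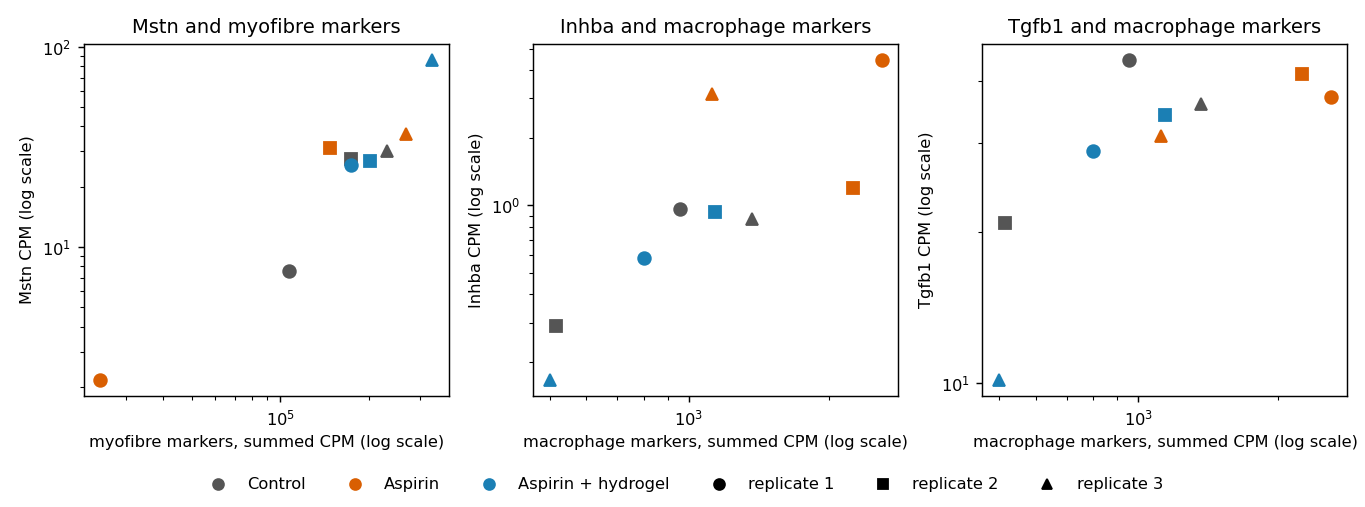
CPM of Mstn against summed myofibre markers, and of Inhba and Tgfb1 against summed macrophage markers, on log axes with 1 point per library. Mstn runs from 2.18 CPM at 24495 CPM of markers to 86.0 CPM at 329367, with most libraries close together between, and Inhba and Tgfb1 are both lowest in Hydrogel replicate 3, which has the lowest macrophage sum, 500 CPM.

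By Pearson r of log2 CPM over the 9 libraries, among 13002 named genes averaging at least 1 CPM, the closest genes to Inhba were the collagenase gene Mmp13 (r = 0.97) and the monocyte chemokine gene Ccl7 (r = 0.97). The closest to Mstn were Dpf2 and Asb11 (r = 0.99 each), and 1027 genes had r above 0.9 with Mstn. For Tgfb1 they were Slamf8 and Cotl1 (r = 0.97 each), for Tgfb2 Padi2 (0.98) and Rtkn (0.97), and for Tgfb3 Trp63 (0.99) and Dhrs1 (0.98). For Tgfbr1 they were Klhl9 (0.96) and Myf6 (0.95), for Smad7 Tbc1d10c (0.98) and Ago1 (0.97), and for Fst Slc8b1 (0.97) and Cdk14 (0.95). Tgfbr2 had no gene above 0.9, and Ercc4 (0.89) and Tgif2 (0.88) came closest. These values are descriptions over libraries that share the same extremes, and no test was made of them.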

How the data were processed

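The authors deposited raw counts per Ensembl gene and FPKM for the same 9 libraries, per the file headers. Reads were placed on mm10, which the submitters' processing notes name; the sources used here do not name the aligner, counting tool, annotation or strand setting. After 1 factor per gene and library, 98.4% of values in 10432 genes agreed between both tables within 1%. Libraries used a SMARTER kit, per the labels' protocols.

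Counts were tested with edgeR 4.0.16 (R 4.3.3; robust quasi-likelihood fit, TMM, filterByExpr with minimum count 10 and total 15), a design of group alone over the 9 libraries, Benjamini-Hochberg adjustment over 18259 genes and a threshold of 0.05. DESeq2 1.42.0, limma 3.58.1 on voom values or log2 of FPKM plus 0.1 or 1, no filter, library size alone, 2-group fits, a replicate block and leaving out each library were alternatives. Log2 CPM used a prior count of 1. A library with 0 counts lies under 0.0554 to 0.100 CPM (3 counts, counting error only).

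Mice are labelled as separate animals. The titles carry codes of unstated meaning (S9 in Control, S7 and, for replicate 3, S10 in Aspirin, S8 in Hydrogel) that no 2 groups share, so what they mark and treatment cannot be told apart. Replicate numbers were checked for pairing: same-numbered deviations from group means correlated at 0.62, 0.13 and 0.26 for Aspirin and Control, all over 0.1, a hint of pairing from the data alone, and at -0.24 and -0.44 for number 2 in the comparisons with Hydrogel. The tests reported use no block, and the block is given as an alternative.

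The members and lists were chosen with earlier results of these data known. Named genes are the members, up to 3 genes of smallest unadjusted p per list and comparison (or past the threshold), and for each member the 2 genes of highest Pearson r among genes averaging at least 1 CPM, without predicted genes and pseudogenes. Some genes of the lists are not reported here by name. Ccn2 was matched as Ctgf; Itgam has 2 rows, of which the one with more counts was used. Promoters are from RefSeq (GRCm38.p6; 6 of 9 members matched). Exons of Tgfb2, Tgfb3 and Fst overlap antisense genes that averaged under 0.1 CPM.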

Additional observations from a re-analysis of the deposited data

How the results depend on the processing

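Of 378 alternative log2 fold changes of members, 337 kept their direction and none passed the threshold; 41 changed sign, and the cause was not tested. With library size alone, which moved the median of all genes to 0.27, -0.25 and -0.51 in Aspirin against Control, Hydrogel against Control and Hydrogel against Aspirin, Tgfbr2 was at 0.20 in the first, and Tgfb2, Tgfb3 and Tgfbr2 were at -0.19, -0.13 and -0.49 in the third. With limma-voom Mstn was at -0.51 in the first. With FPKM plus 0.1, Tgfbr2 was at 0.12 and Mstn at -0.24 in the first, and Tgfb2, Tgfb3 and Tgfbr2 at -0.10, -0.089 and -0.42 in the third; with FPKM plus 1 these were 0.12, -0.12, -0.088, -0.085 and -0.38. With the replicate number as a block, Mstn was at -0.23 in the first comparison, Smad7 at 0.23 in the second and 0.074 in the third, and the block called 1 of all genes in the third against 0 without it and changed no other call. Aspirin replicate 2 correlated best with Control replicate 3, so the numbers are a weak hint of pairing.

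Leaving out each library in turn gave ranges that crossed 0. For Aspirin against Control these were -0.095 to 0.17 for Fst, -0.39 to 0.64 for Mstn, -0.86 to 0.95 for Smad7, -0.14 to 0.36 for Tgfb1, -0.69 to 0.025 for Tgfb3 and -0.18 to 0.028 for Tgfbr2. For Hydrogel against Control they were -0.91 to 0.072 for Inhba, -0.37 to 0.58 for Smad7, -0.34 to 0.072 for Tgfb3 and -0.21 to 0.12 for Tgfbr2. For Hydrogel against Aspirin they were -0.77 to 0.75 for Smad7, -0.23 to 0.74 for Tgfb2, -0.21 to 0.504 for Tgfb3, -0.28 to 0.13 for Tgfbr1 and -0.15 to 0.20 for Tgfbr2.

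DESeq2 called 102, 18 and 156 of all genes, where edgeR called 0, and 2 pathway list genes in the first comparison and 6 in the third. Leaving out 1 library gave 0 to 2 calls over all genes in the third comparison by edgeR, with 2 without Aspirin replicate 3. Of the marker relations 10 passed with library size alone against 0 with TMM. The numbers of separated members without Aspirin replicate 1 or Hydrogel replicate 3 were chosen after seeing the data. Inhba, with 5 to 233 counts, is the member most limited by depth.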
